A study of Homo sapiens with 6 samples.

Results

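The transcripts examined here encode the proteins that set and read the phosphorylation of the translation factor eIF2 alpha. They are its 4 kinases (EIF2AK1, EIF2AK2, EIF2AK3 and EIF2AK4), 2 regulatory subunits of its phosphatase (PPP1R15A and PPP1R15B), eIF2 alpha itself (EIF2S1), and 3 subunits of the exchange factor eIF2B (EIF2B1, EIF2B2 and EIF2B5). These 10 genes were taken by name, through the symbols and Entrez numbers of the probe sets, from 18574 genes with a probe set of their own. All 10 were measured, with 31 probe sets. The comparison asks which arm upstream of eIF2 alpha differs at the RNA level.

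RNA was measured on 6 expression arrays, 3 of a clone infected with a virus that carries a short hairpin RNA against SOX9 (shSox9, called knockdown here) and 3 of a control clone infected with the empty virus. All cells are labelled HepG2, an established liver cancer cell line, and were grown in the same serum-containing medium. Each group is 1 clone, the time after infection is not stated, and the labels do not tell whether the 3 arrays of a clone stand for separate cultures. The p-values therefore measure only the spread between these arrays, possibly technical. A difference between the clones and an effect of the hairpin cannot be told apart.

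The targeted gene SOX9, a transcription factor, read 6.91, 7.08 and 6.90 on the knockdown arrays and 8.15, 7.99 and 7.67 on the control arrays, in log2 units. The change was -0.97 (SE 0.13, limma adjusted p = 0.00114). The description field of the knockdown samples names the empty virus, and the SOX9 levels go with the titles instead. Hepatocyte markers read low: the mean of 10 such genes was 3.74 over all arrays, and the median of an array lay between 5.42 and 5.48. Only TTR of the 10 averaged at least 5, ALB read 3.26 and AFP 2.66, and no marker of that list passed the test. Levels can be compared only loosely between probe sets, but these go against the HepG2 label. The mean of 8 leukocyte markers was 3.76, of 7 endothelial markers 4.82, of 7 kidney epithelial markers 5.11 and of 7 fibroblast markers 4.13. Among these, CD68 (0.62), LHX1 (0.79) and DCN (0.59) rose and SLC12A1 fell by 2.05, and their part in the results was not tested. The arrays also differ in technical readings. The added poly-A spike-in transcripts read 7.30, 6.94 and 7.14 on the knockdown arrays and 6.50, 6.66 and 7.12 on the control arrays. The GAPDH 3' signal exceeded its 5' signal by 0.42, 0.37 and 0.24 on the knockdown arrays and by 0.04, 0.03 and 0.26 on the control arrays. In both readings control 3 lies with the knockdown arrays, so values without it are given where a result rests on it. The 3' minus 5' signal of beta-actin differed the other way, at 2.29, 2.34 and 2.19 on the knockdown arrays and 2.56, 2.55 and 2.51 on the control arrays, with control 3 among the controls. Fits with the GAPDH and spike-in readings as covariates are given below, and none was run with the beta-actin reading. Both covariates largely follow the groups, so these fits cannot separate a reading from the difference between the groups.

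Phosphorylated eIF2 alpha holds on to eIF2B, which otherwise reloads eIF2 with GTP for the next round of initiation. General translation then slows, while some mRNAs with upstream reading frames, such as that of the transcription factor ATF4, are translated more, a program known as the integrated stress response. Each kinase answers another signal: heme shortage and mitochondrial stress (EIF2AK1, also HRI), double-stranded RNA (EIF2AK2, PKR), unfolded protein in the endoplasmic reticulum (EIF2AK3, PERK) and uncharged tRNA or stalled ribosomes (EIF2AK4, GCN2). All of this control acts on proteins, which arrays do not measure.

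The start-site sequences of 4 genes are shown because their probe sets carry the differences described below: PPP1R15B and EIF2AK3 had probe sets that were lower in knockdown, and EIF2S1 and EIF2B5 had probe sets that were higher. Each is the stretch of 250 bases before the RefSeq transcription start in GRCh38.p14, written 5' to 3' on the gene's strand. They lie at chr1:204411818-204412067 (PPP1R15B, minus strand), chr2:88627465-88627714 (EIF2AK3, minus strand), chr14:67360078-67360327 (EIF2S1, plus strand) and chr3:184135108-184135357 (EIF2B5, plus strand). Capitals mark a match to the core of the amino acid response element, TGATGNAA, a sequence to which ATF4 dimers are known to bind.
PPP1R15B: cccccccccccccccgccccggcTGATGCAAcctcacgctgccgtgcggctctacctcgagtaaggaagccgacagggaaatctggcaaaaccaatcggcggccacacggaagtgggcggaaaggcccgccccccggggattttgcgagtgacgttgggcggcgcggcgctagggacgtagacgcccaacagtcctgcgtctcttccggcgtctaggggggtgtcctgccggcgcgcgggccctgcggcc
EIF2AK3: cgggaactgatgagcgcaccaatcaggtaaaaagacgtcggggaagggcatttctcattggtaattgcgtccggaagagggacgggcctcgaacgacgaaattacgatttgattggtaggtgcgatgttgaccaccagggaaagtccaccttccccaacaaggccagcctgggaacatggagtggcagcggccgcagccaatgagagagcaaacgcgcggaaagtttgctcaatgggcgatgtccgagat
EIF2S1: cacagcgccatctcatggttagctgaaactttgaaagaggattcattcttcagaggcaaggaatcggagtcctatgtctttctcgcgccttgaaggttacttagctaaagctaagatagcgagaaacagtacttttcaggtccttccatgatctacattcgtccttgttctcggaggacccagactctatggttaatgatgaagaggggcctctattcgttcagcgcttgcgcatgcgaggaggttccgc
EIF2B5: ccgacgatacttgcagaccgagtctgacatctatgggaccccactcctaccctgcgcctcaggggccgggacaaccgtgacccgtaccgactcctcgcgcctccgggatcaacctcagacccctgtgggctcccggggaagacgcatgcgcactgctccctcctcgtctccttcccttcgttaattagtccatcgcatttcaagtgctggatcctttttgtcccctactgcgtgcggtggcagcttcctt
A match to TGATGNAA on either strand was present in 3.62% of 35116 RefSeq promoters, searched over 300 bases, of which 50 follow the start. Among the 9 of the 10 genes with an entry in that table (all but EIF2AK1), PPP1R15B had the match TGATGCAA, at bases -227 to -220. PPP1R15A held TGACGTCA, the cyclic AMP response element, at bases -58 to -51, and 1.85% of promoters hold it. EIF2AK2 held GAAAACGAA across its start at bases -6 to 3, a match to the core of the interferon-stimulated response element GAAANNGAA, which 8.11% of promoters hold. The endoplasmic reticulum stress response element, searched as CCAAT and CCACG spaced by 9 bases, was in 0.0769% of promoters and in none of the 9. Matches of different motifs did not overlap, and a match describes letters, not binding.

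At the RNA level 2 of the 10 genes passed the test across all genes, EIF2S1 and EIF2B5, both higher in knockdown. For comparison, 16.8% of all genes were called, 8.41% higher and 8.35% lower, so the share among the 10 is near the background. The groups of 3 arrays did not overlap for 4 genes, EIF2AK3, EIF2S1, EIF2B1 and EIF2B5, against 32.4% of all genes. The differences were positive for 5 genes and negative for 5, with a median of 0.03, as over all genes. The median absolute difference was 0.22 for the 10 and 0.14 for all genes. None of the kinases and neither phosphatase subunit passed by the probe set of highest signal. In bulk RNA a change in the share of cells that carry a transcript and a change per cell cannot be told apart.

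**Figure D1:**
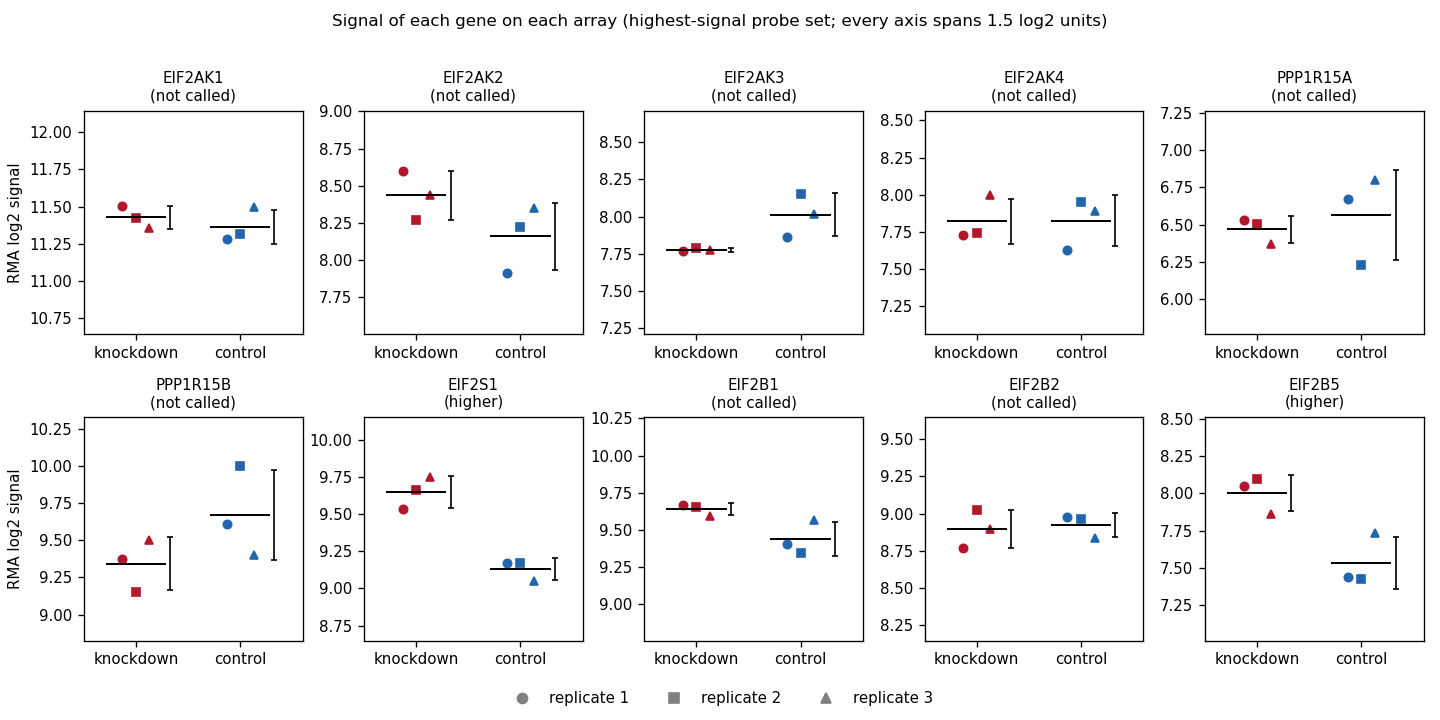
RMA log2 signal of each of the 10 genes (vertical axes, each spanning 1.5 units) on the knockdown arrays (red) and control arrays (blue); lines are means and bars are SD of 3 arrays. EIF2S1 and EIF2B5 stand higher in knockdown with no overlap, and 8 genes were not called.

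Of the kinases, EIF2AK1 was the most densely covered, with 8 probe sets on chromosome 7, band p22.1. Its highest-signal probe set read 11.51, 11.42 and 11.35 in knockdown and 11.28, 11.32 and 11.50 in control. The groups overlap, and the difference was 0.06 with a 95% interval of -0.16 to 0.28 (limma adjusted p = 0.769). The other sets gave differences of -0.11 to 0.34, and none of the 8 passed over all probe sets. Among 14 measured partners of the HRI arm and enzymes of heme synthesis, 3 rose and none fell. These were HSP90AA1, a chaperone of the kinase (1.11), HMOX2, a heme oxygenase (0.55), and CPOX, a heme synthesis enzyme (0.46). The median of that list was 0.04. This count and those of the lists that follow stand beside 8.41% of all genes called higher and 8.35% lower. With the GAPDH covariate 1 of the 14 was called, as with the spike-in covariate. Across all 18574 genes those fits called only 295 and 765 in either direction. The covariate counts of this and the later lists stand beside these, so a low count in a short list says little about that list.

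EIF2AK2 read 8.60, 8.27 and 8.44 in knockdown and 7.91, 8.22 and 8.35 in control. Control 1 is the lowest array, and control 3 lies between knockdown 2 and knockdown 3. The difference of 0.27 (95% interval -0.02 to 0.57) did not pass (limma adjusted p = 0.217), nor did the 0.12 of its second probe set. EIF2AK2 is itself an interferon-stimulated gene, and of 26 other such genes 3 rose and 5 fell, with a median of 0.00. The exonuclease gene ISG20 fell (-1.18), as did IRF7 (-0.93), a transcription factor of the interferon response, while SAMHD1, a nucleotide hydrolase, rose by 0.76 and BST2, a surface restriction factor, by 0.62. Of 8 partners of the PKR arm, 3 rose, the RNA helicase DHX9 (0.74), the small-RNA nuclease DICER1 (0.52) and its cofactor TARBP2 (0.45), and none fell. The list does not sort these partners by whether they activate or restrain the kinase. With either covariate none of these 8 was called, and of the interferon-stimulated genes 2 fell with the GAPDH covariate and 3 with the spike-in covariate, with none higher.

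EIF2AK3 was lower in knockdown by 1 of its 3 probe sets, which was not the one of highest signal. The set of highest signal, 11722152_s_at, read 7.77, 7.79 and 7.77 in knockdown and 7.86, 8.15 and 8.02 in control. Every knockdown array is below every control array, but the gap to control 1 is small, and the difference of -0.23 (95% interval -0.46 to -0.01) did not pass (limma adjusted p = 0.156).

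The dimmer set 11722150_a_at of EIF2AK3 read 5.99, 6.25 and 6.11 in knockdown and 6.82, 6.80 and 6.50 in control. Here the control arrays stand well clear, and the difference of -0.59 passed over all probe sets (SE 0.12, limma adjusted p = 0.0148). The third set, 11722151_a_at, read 6.22, 6.34 and 6.29 in knockdown and 6.41, 7.01 and 6.57 in control, a difference of -0.38 that did not pass (adjusted p = 0.141). All 3 sets are aligned to 1 stretch of chromosome 2, positions 88856258 to 88927094, band p11.2, in a build the labels do not name. The call of 11722150_a_at was lost without knockdown 1 (adjusted p = 0.0722) and without control 1 (0.0662). It was kept with the replicate number as a block (limma adjusted p = 0.0401). The replicate numbers do not pair the arrays, so a call kept or lost in a block fit, here or below, decides nothing. With the GAPDH reading as a covariate the difference of 11722150_a_at was -0.35 (adjusted p = 0.39), and with the spike-in reading -0.38 (0.171).

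Of 9 partners of the PERK arm, CDC37, a kinase co-chaperone, rose by 0.62, and NCK1, an adaptor that binds PERK, differed by -0.57 without passing (limma adjusted p = 0.0607). The median of the 9 was -0.16, and none was called with either covariate. The other branches of the unfolded protein response were counted too. Of 19 genes of the IRE1 and XBP1 branch 4 fell, DNAJB9, a chaperone of the endoplasmic reticulum (-1.11), the transcription factor XBP1 (-1.10), HERPUD1 (-0.94) and SEL1L (-0.74), the last a part of the degradation machinery there, and 1 rose. None of the 19 was called with the GAPDH covariate, and 2 fell with the spike-in covariate. Of 14 genes of the ATF6 branch, 2 rose, SDF2L1 (0.69) and CRELD2 (0.48), and MBTPS2, a protease that cuts ATF6, fell by 0.44. None of the 14 was called with either covariate.

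EIF2AK4 did not separate the groups. It read 7.73, 7.74 and 8.00 in knockdown and 7.63, 7.95 and 7.89 in control, a difference of -0.00 with a 95% interval of -0.27 to 0.26 (limma adjusted p = 0.991). A second set read under 5 on all arrays and differed by 0.01. Among 8 partners of the GCN2 arm, RWDD1, which has the same kind of domain by which GCN2 binds its activator, rose by 0.38, and the ribosome-stress kinase MAP3K20 differed by -0.33 without passing (adjusted p = 0.0581). With either covariate none of the 8 was called.

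The kinases were also set against each other on each array, to ask whether their differences differ. EIF2AK2 minus EIF2AK3 was 0.83, 0.48 and 0.66 in knockdown and 0.05, 0.07 and 0.33 in control. By the sets of highest signal this contrast, 0.51, is the widest of the 6 kinase pairs, and the groups do not overlap (two-sided exact permutation p = 0.1, adjusted 0.233 over 7 pairs). The same p was reached by EIF2AK1 minus EIF2AK3 (0.30) and EIF2AK3 minus EIF2AK4 (-0.23), and 0.1 is the smallest p that 3 against 3 arrays allow. With the set of largest variance EIF2AK1 minus EIF2AK3 was wider, 0.93, against 0.87 for EIF2AK2 minus EIF2AK3. That variance includes the difference between the groups, so the rule favours sets that differ. The other 3 pairs, by the sets of highest signal, gave -0.21 to 0.28 with exact p-values of 0.2 to 0.6. No pair can therefore pass a threshold of 0.05 by this test, whatever its size.

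**Figure D2:**
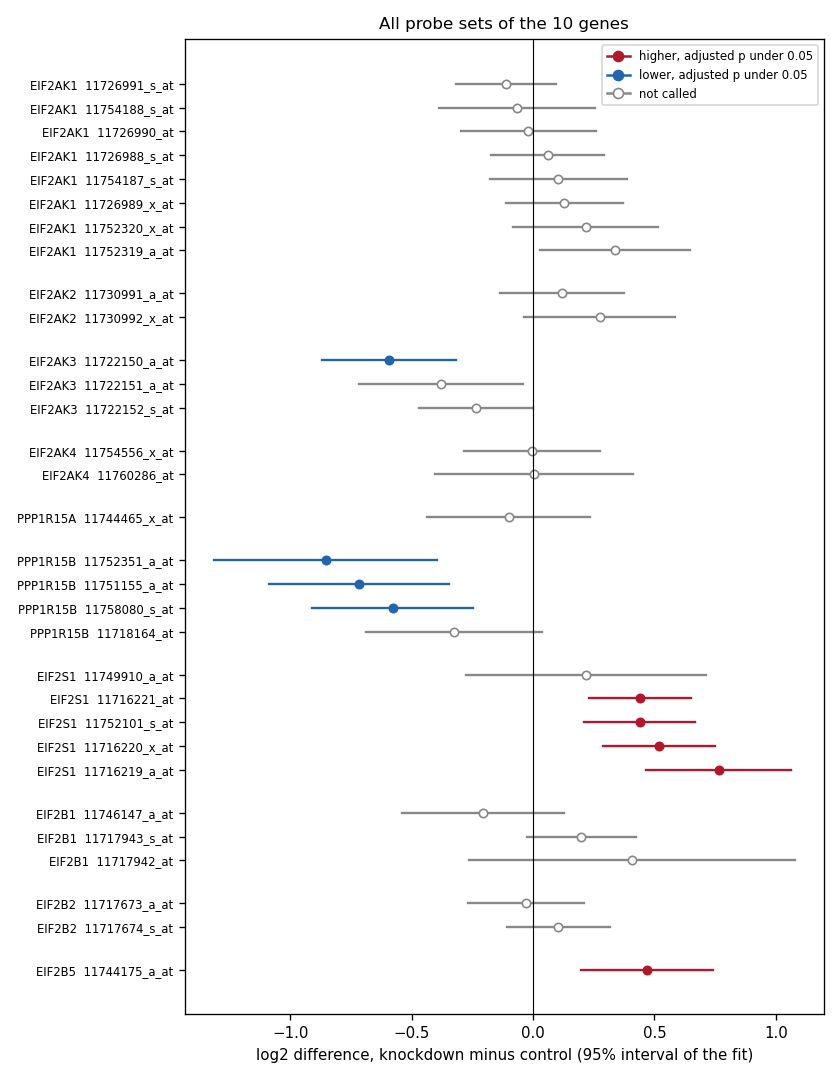
Difference of each of the 31 probe sets, knockdown minus control, in log2 units (horizontal axis), with the 95% interval of the fit; red is higher, blue lower and open grey not called over all probe sets. Of the 31, 5 were higher (4 of EIF2S1 and that of EIF2B5) and 4 lower (3 of PPP1R15B and 1 of EIF2AK3).

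Tested singly over all 49293 probe sets, 5 of the 31 sets were higher and 4 lower, and 22 did not pass. Of all probe sets 12.6% were called, 5.94% higher and 6.68% lower. The groups did not overlap for 13 of the 31, against 29.6% of all probe sets. Probe sets of a gene read the same RNA and are not independent of each other.

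PPP1R15A and PPP1R15B recruit the catalytic subunit PP1 to eIF2 alpha. PPP1R15A (GADD34) is the inducible one and is known as a target of ATF4, and PPP1R15B (CReP) is made constitutively. PPP1R15A read 6.53, 6.50 and 6.37 in knockdown and 6.67, 6.23 and 6.80 in control. Control 2 is the lowest array and control 3 the highest, so the knockdown arrays lie inside the control range. The difference was -0.10 with a 95% interval of -0.42 to 0.22 (limma adjusted p = 0.734), and without control 3 it was 0.02. It rests on 1 probe set, an _x_at set, a name that marks probes which can match further transcripts. The sets of highest signal of EIF2AK2, EIF2AK4 and EIF2S1 have the same ending.

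PPP1R15B was lower in 3 of its 4 probe sets, but not in the one of highest signal. That set, 11718164_at, read 9.37, 9.15 and 9.50 in knockdown and 9.61, 10.00 and 9.40 in control. Control 3 lies below knockdown 3, and the difference of -0.33 (95% interval -0.67 to 0.02) did not pass (limma adjusted p = 0.203).

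The set 11752351_a_at of PPP1R15B read 6.52, 6.59 and 6.87 in knockdown and 7.58, 7.92 and 7.04 in control. Set 11751155_a_at read 5.54, 5.41 and 5.63 in knockdown and 6.38, 6.50 and 5.85 in control. Set 11758080_s_at read 8.11, 8.01 and 8.35 in knockdown and 8.67, 9.01 and 8.52 in control. In all 3 of these sets every knockdown array is below every control array, and control 3 is the control nearest to knockdown. Over all probe sets the differences were -0.85 (SE 0.20, limma adjusted p = 0.0257), -0.72 (SE 0.16, adjusted p = 0.0217) and -0.58 (SE 0.15, adjusted p = 0.0323). Without control 3 they were -1.09, -0.91 and -0.69 and still passed. Without control 1 all 3 missed the threshold (adjusted p = 0.0921, 0.0891 and 0.0854), as they did without control 2 (0.0602, 0.063 and 0.0832), without knockdown 1 (0.103, 0.0763 and 0.118) and without knockdown 2 (0.0782, 0.0747 and 0.108). Without knockdown 3 the second missed it (0.0505). With the replicate number as a block the first and second passed (limma adjusted p = 0.0412 and 0.0423) and the third did not (0.0786). The GAPDH reading tends to be high on the arrays where these sets are low. Because it also largely follows the groups, a fit cannot separate it from the group difference. With it as a covariate the differences were -0.19, -0.25 and -0.22, none of which passed. With the spike-in reading they were -0.54, -0.48 and -0.48, and none passed.

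**Figure D3:**
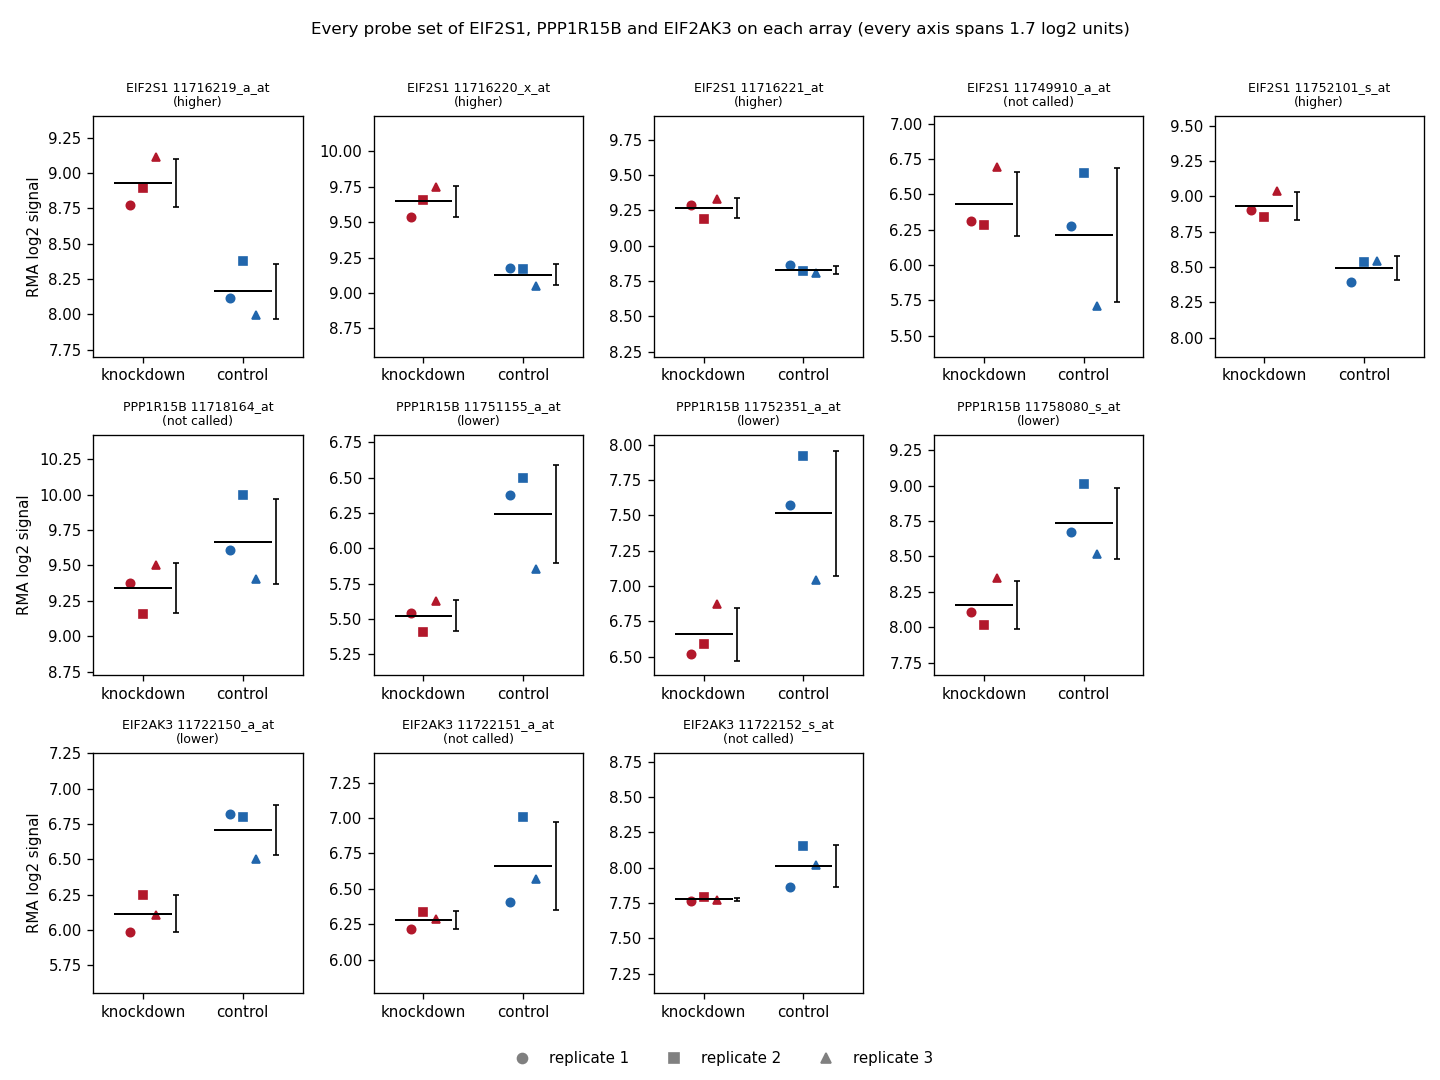
RMA log2 signal of every probe set of EIF2S1 (top), PPP1R15B (middle) and EIF2AK3 (bottom) on the knockdown (red) and control (blue) arrays, each vertical axis spanning 1.7 units; lines are means and bars SD of 3 arrays. In 4 of 5 EIF2S1 sets knockdown is higher, and in the PPP1R15B sets control 3 (triangle) lies nearest to knockdown.

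The 4 sets of PPP1R15B do not read the same stretch. The table aligns 11718164_at to chromosome 1, positions 204372502 to 204380944, and 11758080_s_at to positions 204374135 to 204374664, both on the minus strand in band q32.1. The 11752351_a_at alignment runs over positions 204375079 to 204380945 and that of 11751155_a_at over 204379010 to 204380945. The choice of set decides the call for PPP1R15B and for EIF2AK3. With the set of largest variance standing for each gene, both passed as lower, EIF2AK3 at -0.59 (adjusted p = 0.0164) and PPP1R15B at -0.85 (adjusted p = 0.0192). That variance was taken over all arrays, so it includes the difference between the groups. The rule therefore favours sets that differ, and its calls are no independent support. With the mean of a gene's sets the differences were -0.40 (adjusted p = 0.0235) and -0.62 (adjusted p = 0.0212). Under both rules 4 of the 10 genes were called, against 16.9% and 15.8% of all genes.

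PPP1R15A minus PPP1R15B, by the sets of highest signal, was -2.84, -2.65 and -3.13 in knockdown and -2.94, -3.77 and -2.60 in control. The groups overlap, and the contrast of 0.23 did not differ beyond the spread (exact p = 0.7, adjusted 0.7 over 7 pairs). Over the alternatives run, other probe sets among them, the contrast ranged from -0.11 to 0.75. The smallest exact permutation p among these was 0.2, which is also the smallest that the test allows when an array is left out. Of 7 PP1 catalytic subunits and partners of the phosphatase, 3 rose, actin ACTG1 (0.62), which completes the holoenzyme with PPP1R15 proteins as monomeric actin, SMARCB1, known to bind PPP1R15A (0.50), and ACTB (0.40). None of the 7 fell. With the GAPDH covariate none was called, and with the spike-in covariate 1 rose.

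EIF2S1 encodes eIF2 alpha, the subunit that the kinases phosphorylate. It read 9.53, 9.66 and 9.75 in knockdown and 9.17, 9.17 and 9.05 in control by its set of highest signal, 11716220_x_at. Every knockdown array stands above every control array by more than the spread within a group. The difference was 0.52 (SE 0.10, limma adjusted p = 0.00608), which is 1.43-fold. It held without each array in turn, at 0.47 to 0.58, and passed at the level of genes under every alternative run, with adjusted p-values of 0.00165 to 0.0476.

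Of the other 4 sets of EIF2S1, 11716219_a_at read 8.77, 8.90 and 9.11 in knockdown and 8.12, 8.38 and 7.99 in control, a difference of 0.76 (limma adjusted p = 0.00746). Sets 11716221_at and 11752101_s_at each differed by 0.44 (adjusted p = 0.0163 and 0.0222), and in both the groups are apart. Both of these missed the threshold without knockdown 1 (0.0754 and 0.0798), knockdown 3 (0.0605 and 0.0793) or control 1 (0.0556 and 0.0928), while 11716219_a_at and 11716220_x_at passed without each array in turn. The dimmest set, 11749910_a_at, read 6.31, 6.28 and 6.69 in knockdown and 6.27, 6.65 and 5.71 in control, and its difference of 0.22 did not pass (adjusted p = 0.616). Of the 5 sets, 3 share an alignment to chromosome 14, band q23.3, positions 67826591 to 67853233, plus strand. With the GAPDH and the spike-in reading as covariates the EIF2S1 difference was 0.69 (adjusted p = 0.0476) and 0.61 (adjusted p = 0.0371) at the level of genes. Over all probe sets, 11716220_x_at missed the threshold with each of them (0.0775 and 0.0609), as did 11716221_at (0.157 and 0.131) and 11752101_s_at (0.231 and 0.213), and 11716219_a_at passed (0.0409 and 0.0464). With the replicate block the same 3 sets missed it (0.0559, 0.0821 and 0.0848).

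The other subunits of the eIF2 trimer did not pass the test. EIF2S2, the beta subunit, read 10.56, 10.66 and 10.68 in knockdown and 10.97, 10.81 and 10.89 in control, a difference of -0.26 that did not pass (limma adjusted p = 0.0983). EIF2S3, the GTP-binding gamma subunit, differed by -0.10 (adjusted p = 0.647). Both were chosen for mention after their values were seen, because they complete the complex.

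The eIF2B complex is a decamer with a regulatory part, to which EIF2B1 and EIF2B2 belong, and a catalytic part with EIF2B5, the epsilon subunit that carries the exchange activity. EIF2B5 read 8.05, 8.09 and 7.86 in knockdown and 7.44, 7.43 and 7.73 in control. The groups do not overlap, with knockdown 3 and control 3 closest to each other. The difference was 0.47 (SE 0.12, limma adjusted p = 0.0203), which is 1.38-fold, from a single probe set on chromosome 3, positions 183852809 to 183863090, band q27.1.

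The call of EIF2B5 depended on single arrays. It was lost without control 1 (adjusted p = 0.0803), control 2 (0.0619), knockdown 1 (0.0859) or knockdown 2 (0.0763), while the difference stayed between 0.42 and 0.57. Its order over the arrays resembles that of the GAPDH reading, in which control 3 (0.26) and knockdown 3 (0.24) are also adjacent. Because the GAPDH reading largely follows the groups, a fit cannot separate it from the group difference, and no cause was tested. With that reading as a covariate the difference was 0.17 (adjusted p = 0.58), and with the spike-in reading it was 0.34 (adjusted p = 0.257).

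EIF2B1, the alpha subunit, read 9.67, 9.66 and 9.60 in knockdown and 9.40, 9.35 and 9.57 in control. The groups are apart, but by little at control 3, and the difference of 0.20 (95% interval -0.02 to 0.42) did not pass (limma adjusted p = 0.216). Its 3 probe sets disagree, at -0.21, 0.20 and 0.41, and none passed. EIF2B2, the beta subunit, read 8.77, 9.02 and 8.89 in knockdown and 8.98, 8.97 and 8.83 in control. The arrays of the groups are mixed, and the difference was -0.03 (95% interval -0.26 to 0.20, adjusted p = 0.905), with 0.10 in its second set.

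The remaining subunits, EIF2B3 (gamma) and EIF2B4 (delta), were not called either. EIF2B3 differed by 0.33 (limma adjusted p = 0.0789), with groups that did not overlap, and EIF2B4 by 0.07 (adjusted p = 0.726). They too were chosen for mention after their values were seen. In the wider list of 16 measured eIF2 and eIF2B subunits and cofactors, 3 genes rose and 2 fell, with a median of 0.08. The ribosome-associated ATPase ABCF1 rose by 0.76, BZW2, a mimic of eIF5, by 0.40 and CDC123, an assembly factor of eIF2, by 0.35, and EIF1, which helps select the start codon, fell by 0.70. None of the 16 was called with the GAPDH covariate, and 1 fell with the spike-in covariate. Among 22 measured genes of eIF4F, its 4E-BP inhibitors and eIF3, 5 rose, among them EIF3G (0.88), EIF4G1 (0.86) and EIF4E2 (0.76), and 2 fell, with EIF4EBP1 falling by 0.64. With the GAPDH covariate 1 fell and none rose, and with the spike-in covariate 2 rose and 1 fell.

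**Figure D4:**
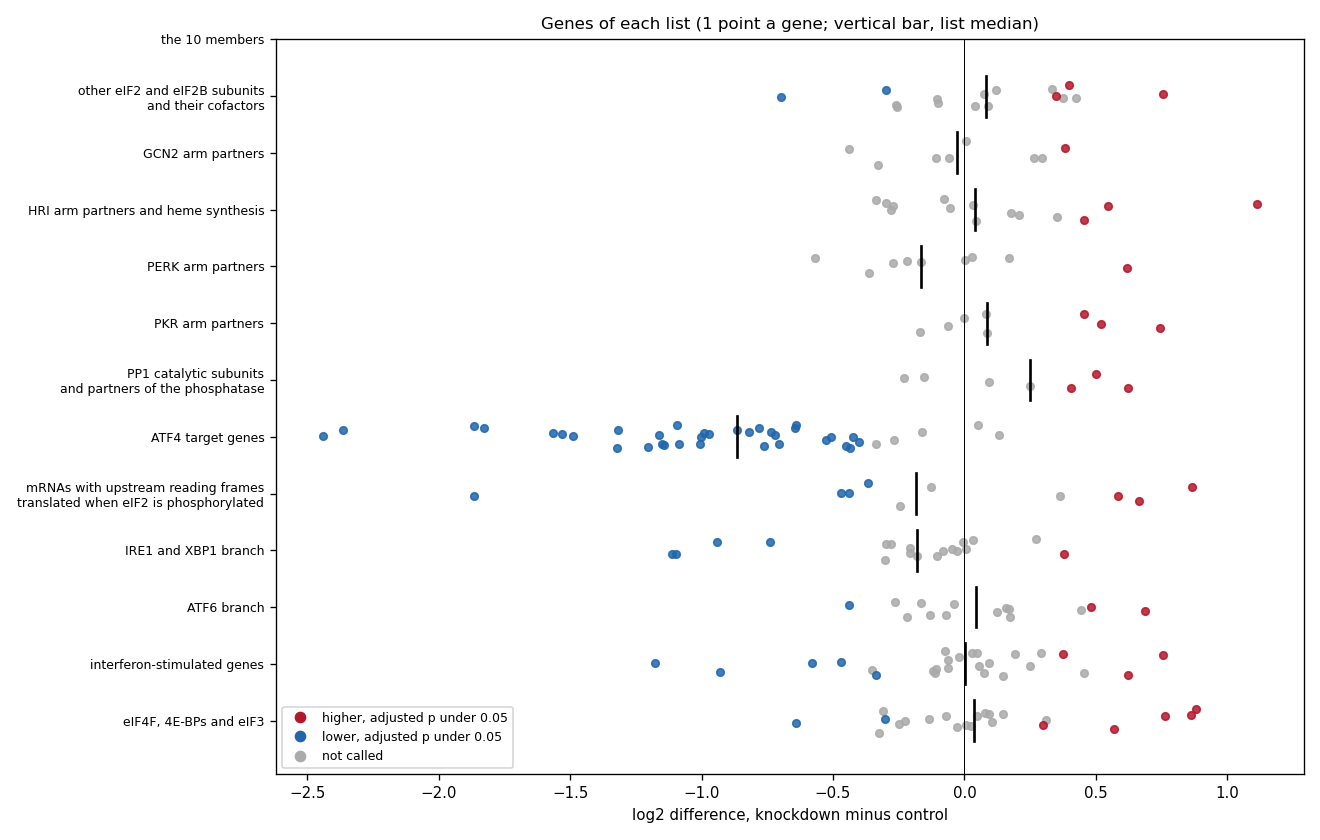
Difference of each gene, knockdown minus control, in log2 units (horizontal axis), for the lists of partners, branches and targets. The top row, labelled for the 10 members, holds no points, and their differences are shown by probe set in an earlier figure. Vertical bars are list medians, red higher, blue lower and grey not called. The medians of the upstream lists lie between -0.16 and 0.25, and that of the ATF4 targets at -0.86.

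Downstream of eIF2 alpha, most ATF4 target genes were lower in knockdown. Of 39 ATF4 target genes 34 fell and none rose, against 8.35% of all genes called lower, and their median was -0.86. The mean of the list was 8.44 to 8.47 on the knockdown arrays and 9.37 to 9.41 on the control arrays. CBS fell by 2.44, and the differences of ASNS, DDIT3 and PCK2 were -2.36, -1.87 and -1.83. These are enzymes of cysteine and asparagine synthesis, the stress factor CHOP and a mitochondrial gluconeogenic enzyme. PPP1R15A, named above as a target of ATF4, is not in this list and did not pass (-0.10, limma adjusted p = 0.734). ATF5, which rose, is not in it either. The list was assembled with earlier results of these arrays known, so its direction is no independent evidence. With the GAPDH reading as a covariate 20 fell, and with the spike-in reading 24. Of 10 mRNAs with upstream reading frames that are translated when eIF2 is phosphorylated, 3 rose and 4 fell. ATF5, a relative of ATF4, rose by 0.87, SLC35A4 by 0.66 and UCP2 by 0.58, and DDIT3 is counted here too. With the GAPDH covariate 1 of the 10 fell and with the spike-in covariate 2, and none rose. ATF4 itself fell by 0.44 (limma adjusted p = 0.0172), named after its values were seen because the targets are its own.

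By the set of highest signal, the 95% intervals of the 8 genes among the 10 that did not pass lie within a 2-fold change in either direction. Those of some other sets reach further, to -1.31 for 11752351_a_at and -1.09 for 11751155_a_at of PPP1R15B and to 1.08 for 11717942_at of EIF2B1. A p that misses the threshold does not show that the groups are alike, and the phosphorylation of eIF2 alpha and the activity of the kinases were not measured on these arrays.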

How the data were processed

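The 6 arrays were grouped by their titles. The authors deposited a table of log2 values of 49372 probe sets, made with RMA and the affy package, per the submitters' processing notes; versions, array design and alignment build: not given in the sources used here. This method makes the distributions of the arrays equal, which removes a shift shared by most transcripts. The deposited series value table was identical. All 6 value columns were used.

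Without 79 control sets, 49293 probe sets remained, 46240 of them with a single gene, named through Entrez numbers and a RefSeq table of GRCh38.p14 for 46035 and by the table's symbol for 205. Each of 18574 genes was represented by its probe set of highest mean. The test was limma's moderated one (version 3.58.1, R 4.3.3; lmFit, eBayes, two-sided, no covariate, no filter). Its p-values were adjusted by Benjamini-Hochberg over all genes, or across every probe set where single sets are tested, at 0.05. The fit was tested on simulated data with independent noise and a small share of changed genes. That setting does not imitate the technical readings that follow the groups here. Differences are knockdown minus control in log2 units, with the standard error (SE). Kinase and phosphatase pairs were compared by exact permutation over arrays. Alternatives were filters, normalization, variance models, the replicate block, other probe sets, covariates and leaving out each array; the GAPDH covariate was added after seeing the data. The genes and lists were chosen with earlier results of these data known. Of each list, up to 4 passing genes of largest change are named, or the 2 of smallest p where fewer than 2 passed. The number of arrays limits the precision. Tables and plots were made with Python 3.11.15, pandas 2.3.3 and matplotlib 3.10.9.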

Additional observations from a re-analysis of the deposited data

How the results depend on the processing

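Of 180 recomputed differences of the 10 genes, 151 kept their direction and their side of the threshold, 7 lost the call, all of them of EIF2B5, 4 gained it and 18 changed sign. Part of this tally was fixed in advance, as the series values were identical to the main ones. The signal filter, the trend and robust forms of eBayes and the replicate block also leave the difference itself unchanged and can move only its p-value. EIF2S1 kept its call throughout at the level of genes. Across all genes 3114 were called, 295 with the GAPDH covariate, 765 with the spike-in covariate and 1758 to 3563 without each array in turn. Of the 10 genes 2 were called. The count was 1, a higher one, with the GAPDH covariate, the spike-in covariate or the replicate block, and 1 to 2, all higher, without each array. It was 4, with 2 lower, with the mean of the probe sets, the set of largest variance or all sets tested singly. The replicate numbers do not pair the arrays: deviations of same-numbered arrays correlated at -0.24, -0.40 and -0.42. Some arrays of unlike number correlated positively. Knockdown 1 did so with control 3 (0.34), knockdown 2 with control 1 (0.35) and knockdown 3 with control 2 (0.53). The remaining pairs lay between -0.15 and 0.11. No fit used such a pairing, and its source was not tested. With the replicate block 2181 genes were called and EIF2B5 missed the threshold (0.47, limma adjusted p = 0.0528). With the GAPDH covariate, EIF2AK1 was -0.138, EIF2AK4 0.0624, EIF2B2 0.0963 and PPP1R15B 0.0484. With the spike-in covariate, EIF2AK1 was -0.0566 and EIF2B2 0.0994. EIF2AK4 also turned positive with array weights (0.0258), median centring (0.0163), repeated quantile normalization (0.0132), the mean of sets (0.0011) and the set of largest variance (0.0060). With the mean of sets EIF2B2 was 0.0377. EIF2AK1 minus EIF2AK2 was 0.0635 with the set of largest variance, and EIF2AK1 minus EIF2AK4 was -0.0072 after repeated quantile normalization. Without each array, EIF2AK4 ranged from -0.101 to 0.0594, EIF2B2 from -0.0925 to 0.0338, PPP1R15A from -0.27 to 0.0177, EIF2AK1 minus EIF2AK4 from -0.0224 to 0.19 and PPP1R15A minus PPP1R15B from -0.11 to 0.48. None of these sign changes brought a call. The cause was not tested. Of 432 recomputed list counts 116 moved by over 1.5 times; the count of lower ATF4 targets stayed between 20 and 36.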
